A study of Mus musculus with 6 samples.

Results

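The genes described here are 10 genes of platelets and megakaryocytes (Pf4, Ppbp, Gp1ba, Gp1bb, Gp5, Gp9, Itga2b, Itgb3, Gp6 and Treml1), read in splenic red pulp macrophages. They were chosen by name, and their probes are all those whose RefSeq accession maps to one of the 10 symbols. That gave 13 probes, 3 for Gp1bb, 2 for Itgb3 and 1 for each other gene, of 55681 probes on the array, 26413 of which carry a gene name. The study compared Bach2 knockout mice with wild-type mice, 3 of each, all C57BL/6 and 8 to 9 weeks old. The macrophages were sorted by flow cytometry from spleen, and each mouse gave 1 single-colour Agilent array. The 3 knockout mice were male, and of the wild-type mice replicates 1 and 2 were male and replicate 3 was female. The labels do not give the gate of the sort or the construction of the Bach2 allele.

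Platelets are anucleate fragments shed by megakaryocytes, and they carry megakaryocyte RNA. They catch on a damaged vessel wall through the glycoprotein Ib-IX-V complex, which binds von Willebrand factor, and through glycoprotein VI, which binds collagen. They then aggregate through the integrin αIIbβ3, which binds fibrinogen, and release α-granules loaded with the chemokines Pf4 and Ppbp. The mouse spleen makes blood cells, so megakaryocytes, erythroblasts and pooled platelets lie in the red pulp beside its macrophages, and macrophages take up aged platelets. Some of the 10 genes are also known outside this lineage: Pf4 and Itgb3 in monocytes and macrophages, and Itga2b in early blood progenitors. Bach2 pairs with small Maf proteins on Maf recognition elements, the DNA elements that the megakaryocyte factor NF-E2 also uses.

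Promoter sequence is shown for Pf4, Ppbp, Gp9 and Treml1. Over the 6 arrays, the levels of Ppbp, Gp9 and Treml1 had a Pearson's r of 0.94, 0.85 and 0.95 with Pf4. Gp9 had a lower r with Ppbp (0.71) and Treml1 (0.68). Itgb3 had an r of 0.89 with Pf4, but its promoter was not matched. Each line gives the 250 bases before the RefSeq start on the gene's strand (GRCm38.p6). Capitals mark GGAAGT, a form of the site of ETS factors such as Fli1, or its reverse complement, and other forms were not marked. Pf4 lies at chr5:90772185-90772434 on the plus strand and Ppbp at chr5:90768268-90768517 on the plus strand. Gp9 lies at chr6:87777820-87778069 on the plus strand, inside the span that RefSeq gives the gene, and Treml1 at chr17:48359666-48359915 on the plus strand.
Pf4 promoter: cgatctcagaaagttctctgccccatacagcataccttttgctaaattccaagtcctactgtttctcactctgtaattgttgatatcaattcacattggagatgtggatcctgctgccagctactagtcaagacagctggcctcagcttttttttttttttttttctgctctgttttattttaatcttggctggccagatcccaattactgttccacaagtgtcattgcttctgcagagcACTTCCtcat
Ppbp promoter: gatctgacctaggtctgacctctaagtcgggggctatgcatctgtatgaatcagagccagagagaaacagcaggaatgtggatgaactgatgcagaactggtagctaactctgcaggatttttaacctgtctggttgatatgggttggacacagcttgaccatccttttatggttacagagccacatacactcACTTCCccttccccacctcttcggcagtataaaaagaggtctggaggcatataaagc
Gp9 promoter: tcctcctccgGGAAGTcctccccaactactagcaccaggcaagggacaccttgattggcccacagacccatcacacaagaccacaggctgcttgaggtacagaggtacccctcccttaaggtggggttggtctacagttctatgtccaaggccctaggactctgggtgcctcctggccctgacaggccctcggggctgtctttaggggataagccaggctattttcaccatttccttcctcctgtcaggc
Treml1 promoter: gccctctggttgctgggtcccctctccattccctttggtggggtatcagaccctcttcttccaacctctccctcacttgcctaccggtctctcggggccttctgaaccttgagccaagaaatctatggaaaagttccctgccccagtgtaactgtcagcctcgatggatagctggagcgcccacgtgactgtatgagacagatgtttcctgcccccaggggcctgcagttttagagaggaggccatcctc

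Pf4 and Ppbp are neighbours, with 2371 bases between the end of Ppbp and the start of Pf4. Their ETS letters begin at position -10 in Pf4 and -57 in Ppbp, and those of Gp9 at -240, counted from the RefSeq start. Promoters of 9 of the 10 genes were matched, all but that of Itgb3. GGAAGT on either strand was found in 5 of the 9 (Pf4, Ppbp, Gp9, Itga2b and Gp5), against 19.7% of 32851 mouse promoter windows of this length. AGATAA, a form of the GATA factor site, was found in 2 of the 9 (Gp6 and Gp5), against 9.99% of windows. Other forms of the GATA site were not searched for, so a window without AGATAA may still hold one. TGAGTCA, the core shared by AP-1, NF-E2 and Bach sites, was in 0 of the 9 and in 4.46% of windows. In these 9 windows no match of one motif overlapped a match of another.

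Levels are given as log2 of the processed signal relative to the 75th percentile of its array, and differences as knockout minus wild type. The scanner software calls each spot well above background or not, and 38.9% to 46.2% of spots were so called on knockout arrays and 37.5% to 51.5% on wild-type arrays. The 75th percentile lay between 1178 and 3209 in knockout and between 870 and 1742 in wild type, and with 6 arrays the precision of each value is limited. Red pulp macrophage markers were bright in both genotypes, with 20 of 21 well above background on all 6 arrays. Their transcription factor Spic stood at 5.63 ± 0.32 in knockout and 6.05 ± 0.49 in wild type (SD, n = 3 each). Bach2, the deleted gene, has 2 probes. The brighter read -2.42, -3.91 and -1.42 in knockout and -1.09, -0.22 and -1.54 in wild type. It was not well above background on knockout replicate 2. Its log2 difference was -1.63 ± 0.76 (SE, limma adjusted p = 1), the genotypes overlapped, and where the probe lies relative to the deleted part is not given in the sources used here, so it checks no label. Knockout arrays lay in row 2 of the slide and wild-type arrays in row 1, and the effect of the row cannot be told apart from that of genotype. Each array column held 1 mouse of each genotype, which allows a difference within each column.

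For the 6 platelet gene probes measured on most arrays, the range within each genotype was wider than the difference between the genotypes. Pf4, Ppbp, Gp9 and Itgb3 were well above background on all 6 arrays, and Treml1 and 1 probe of Gp1bb on 4 of them. None of the 13 probes passed limma at an adjusted p under 0.05, and none of the 55681 did, so the background is 0% in both directions. At an unadjusted p under 0.05 there was 1 member probe, for Gp1ba, among those below 0 and 0 among those above it, against 0.402% and 0.481% of all probes. In all, 11 of the 13 differences lay below 0, with a median of -0.46, where 44.0% of all probes lay below 0 and the median of all was 0.09. Among probes well above background on at least 3 arrays, the median was -0.83 for the 6 member probes and -0.12 for all 23065. The 13 include 5 probes that exceeded background on none of the arrays, and among these only a Gp1bb probe, at 0.33, lay above 0. Of these dark probes, those of Gp5, Itga2b and Gp6 differed by -1.66, -1.66 and -1.64 in array column 3. In column 2 they differed by 1.43, 0.94 and 2.20. Of the 11, 5 lay above 0 when knockout replicate 3 was left out, and the median was then 0.05, beside 0.35 for all probes. In sorted bulk cells, fewer cells of a type and less RNA per cell cannot be told apart.

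Both α-granule chemokines were measured on every array. Pf4 (platelet factor 4, also called Cxcl4) read 2.38, 4.07 and 1.71 in knockout replicates 1 to 3 and 4.88, 5.75 and 2.08 in wild-type replicates 1 to 3. Wild-type replicates 1 and 2 lay above every knockout array, while wild-type replicate 3 lay among the knockout arrays. The log2 difference was -1.52 ± 0.97 (SE), with a 95% interval of -3.65 to 0.61 and a limma adjusted p of 1. Ppbp, whose product is cleaved to the neutrophil attractant NAP-2, read -0.59, 1.84 and -0.37 in knockout and 1.23, 2.81 and -0.35 in wild type. Knockout replicate 2 lay above 2 of the 3 wild-type arrays, and the difference was -0.94 ± 0.92 (SE), with an interval of -2.96 to 1.07. Taken column by column, from 1 to 3, the difference was -2.50, -1.68 and -0.37 for Pf4 and -1.83, -0.98 and -0.02 for Ppbp. Without wild-type replicate 3, the female mouse, Pf4 differed by -2.59, and without wild-type replicate 2 by -0.76.

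**Figure D1:**
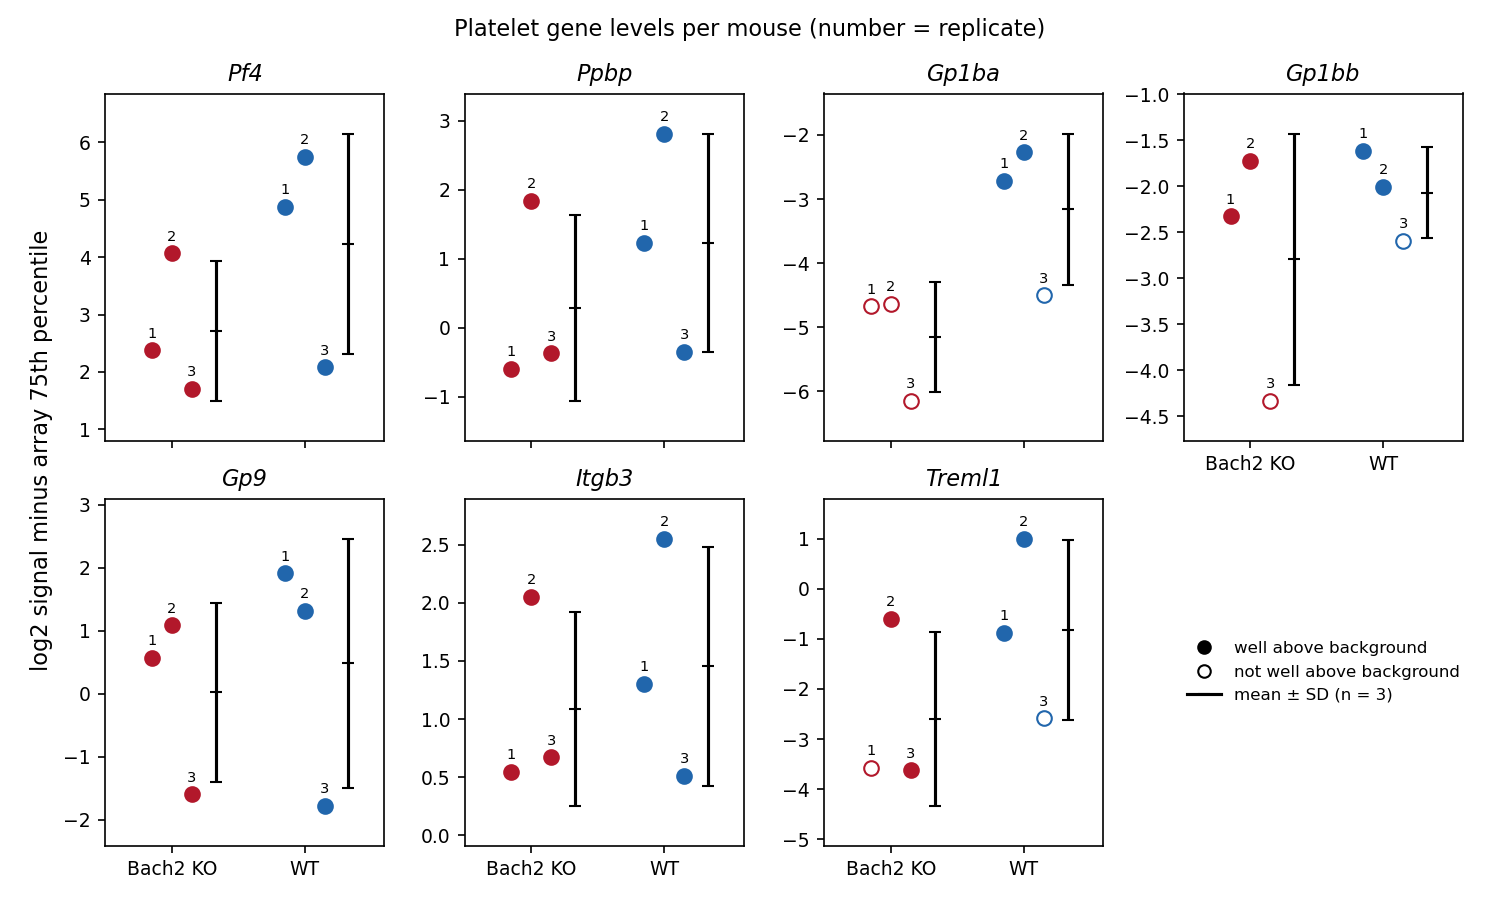
Level of the 7 platelet genes with a probe well above background on at least 2 arrays, by mouse, as log2 signal relative to the 75th percentile of the array. Red points are Bach2 knockout and blue points wild type, open points were not well above background, numbers are replicates, and the black bars give the mean ± SD of 3 mice. Knockout replicate 2 and wild-type replicates 1 and 2 are the 3 highest arrays for Pf4, Ppbp, Gp9, Itgb3, Treml1 and the brighter Gp1bb probe.

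Of the 4 subunits of the glycoprotein Ib-IX-V complex, Gp9 was measured on every array and Gp1bb on 4 of them. Gp9, the small subunit that stabilises the complex at the surface, read 0.57, 1.08 and -1.60 in knockout and 1.91, 1.31 and -1.78 in wild type. The lowest array of all was wild-type replicate 3, next to knockout replicate 3, and the difference was -0.46 ± 1.02 (SE, interval -2.69 to 1.77). Gp1bb, the β chain, read -2.33, -1.72 and -4.33 in knockout and -1.61, -2.01 and -2.59 in wild type with its brighter probe (A_51_P151576), which gave -0.72 ± 0.77 (SE). Knockout replicate 3 and wild-type replicate 3 were not well above background, so their order is not settled. The other 2 Gp1bb probes exceeded background on none of the 6 arrays and differed in sign, at -0.56 and 0.33. Gp1bb overlaps its neighbour Septin5 by 593 bases in the RefSeq table. The probe of Septin5 read -1.67, -3.52 and -0.94 in knockout and -2.71, -3.72 and -2.10 in wild type.

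Gp1ba, the α chain that binds von Willebrand factor, was the member with the smallest p. It read -4.67, -4.63 and -6.14 in knockout and -2.71, -2.27 and -4.50 in wild type, so the genotypes did not overlap, as for 1.90% of all probes on the lower side. The difference was -1.99 ± 0.77 (SE, interval -3.68 to -0.30), with an unadjusted limma p of 0.025 and an adjusted p of 1. Within array columns 1 to 3 it was -1.96, -2.37 and -1.64, but in column 3 neither array was well above background. In that column Gp5 and Itga2b, which exceeded background on none of the arrays, each differed by -1.66. The Gp1ba signal was well above background on wild-type replicates 1 and 2 alone. Before scaling, the processed signal was 61.2, 47.4 and 45.4 in knockout and 266.1, 353.0 and 38.4 in wild type, so wild-type replicate 3 was then the lowest of the 6. No lower bound of the fold exceeded 1, because the mean floor of the knockout arrays lies above the wild-type mean. Gp5, the subunit that thrombin cleaves, exceeded background on none of the 6 arrays, with a signal of 54.3 to 70.4 in knockout and 30.2 to 143.0 in wild type.

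Of the integrin αIIbβ3, only the β chain was measured, and its gene is also known in monocytes and macrophages. Itgb3 read 0.55, 2.05 and 0.67 in knockout and 1.30, 2.55 and 0.51 in wild type with its brighter probe (A_52_P553890). The genotypes overlapped, with knockout replicate 2 above 2 wild-type arrays, and the difference was -0.37 ± 0.74 (SE, interval -1.99 to 1.26). The second Itgb3 probe (A_66_P126293) had the opposite sign, at 1.06 ± 1.14 (SE), but was well above background only on knockout replicate 2 and wild-type replicate 3. Itga2b, the αIIb chain (CD41) and the usual surface marker of megakaryocytes, exceeded background on none of the 6 arrays. Its signal was 50.7 to 67.2 in knockout and 39.3 to 114.8 in wild type.

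The immunoglobulin-type receptors were Treml1, which α-granules bring to the surface of activated platelets, and Gp6, the collagen receptor. Treml1 read -3.57, -0.59 and -3.62 in knockout and -0.87, 1.0 and -2.58 in wild type, a difference of -1.78 ± 1.03 (SE, interval -4.04 to 0.49, limma adjusted p = 1). Its wild-type mean was 3.43-fold the knockout mean, and knockout replicate 2 lay above 2 of the 3 wild-type arrays. Within array columns 1 to 3 the difference was -2.70, -1.60 and -1.04. It was not well above background on knockout replicate 1 and wild-type replicate 3, so the difference in column 3 is not settled. Before scaling, the Treml1 signal in that column was 260.8 in knockout and 145.3 in wild type. Gp6 exceeded background on none of the 6 arrays, with a signal of 54.2 to 224.6 in knockout and 45.8 to 278.3 in wild type.

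**Figure D2:**
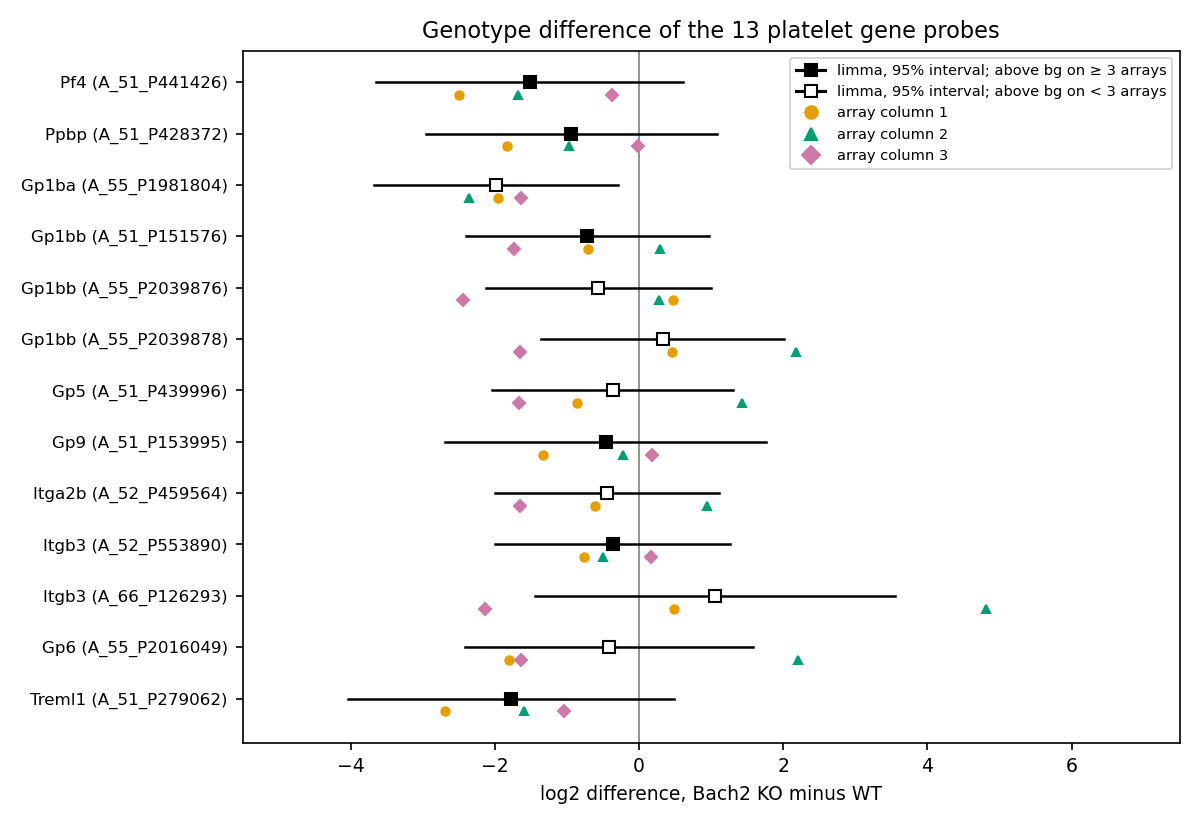
Log2 difference, knockout minus wild type, of the 13 probes with the 95% interval from limma (squares and lines), filled where the probe was well above background on at least 3 of 6 arrays, beside the difference within each array column (coloured marks). The interval of Gp1ba alone leaves out 0, and its probe was above background on 2 arrays.

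The measured members varied together between the 6 mice, to differing degrees. Over the 15 pairs of the 6 probes well above background on at least 3 arrays, Pearson's r over 6 arrays lay between 0.54 and 0.99 with a median of 0.80. The highest was between Ppbp and Itgb3, at 0.99, and 0.98 was reached between Ppbp and Treml1. After each genotype's mean was taken off, r was 0.94 between Pf4 and Ppbp, 0.94 between Pf4 and Treml1 and 0.90 between Pf4 and Gp9. It was lower for the Gp1bb probe, at 0.66 with Pf4, 0.53 with Ppbp and 0.50 with Itgb3, and it was 0.65 between Gp9 and Itgb3. These points share the array and its scaling. Of 17342 other probes well above background on all arrays, 0.450% followed Pf4 at least as closely as Ppbp did, 2.45% as closely as Itgb3 and 5.05% as closely as Gp9, and the median r with Pf4 was 0.16.

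The spread itself was wide. From the lowest to the highest of the 6 mice, Pf4 varied 16.5-fold, Gp9 12.9-fold, Ppbp 10.6-fold and Itgb3 4.11-fold. Among 17343 probes well above background on all 6 arrays, 96.7% had a narrower range than Pf4, 95.4% than Gp9, 94.0% than Ppbp and 76.1% than Itgb3. Treml1 varied 24.7-fold, with 2 arrays not well above background, so that its lowest array is not settled. Knockout replicate 2 and wild-type replicates 1 and 2 were the high arrays for the 6 probes, and knockout replicate 3 or wild-type replicate 3 was the lowest for Pf4, Gp9 and Itgb3. For Ppbp the lowest was knockout replicate 1, at -0.59.

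The 6 named genes whose pattern over the 6 arrays was nearest to that of Pf4 were Zranb2 (r = 0.995), Ppid (r = 0.987), Fars2 (r = 0.986), Ywhaq (r = 0.982), Tmed2 (r = 0.981) and Zfp330 (r = 0.981), none of which is in the platelet lists. Their differences, knockout minus wild type, lay between -0.51 and -0.19. With 17342 probes ranked on 6 arrays, some high values arise in any such search.

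Other platelet and megakaryocyte genes were read from lists by role, to see whether they followed the 10. Of 99 such genes 98 had a probe, 75 of them well above background on at least 3 arrays, and 0 passed limma at an adjusted p under 0.05 in either direction. At an unadjusted p under 0.05 there was 1 above 0 (Ptgir, the prostacyclin receptor) and 1 below (Alox12, the platelet lipoxygenase). Differences lay above 0 for 39 and below 0 for 59, with a median of -0.11, beside 0.09 for all probes and -0.12 for those well above background on at least 3 arrays. The mean level of the measured genes of these lists had an r of 0.76 with Pf4 over the 6 arrays, and each array lay between -0.12 and 0.17 of its average on the log2 scale. By role the r was 0.22 for granule and secreted proteins, -0.49 for receptors, 0.50 for signalling and cytoskeletal genes and 0.09 for transcription factors. Knockout arrays all lay below wild-type arrays for 2 of these genes (Alox12 and Pdgfa, a chain of platelet-derived growth factor) and all above them for 2 others (Prkcq and the LIM protein gene Pdlim1), against 1.90% and 0.673% of all probes. Prkcq, a kinase of platelets and T cells, read 0.35, 1.81 and 0.24 in knockout and -0.31, -0.06 and -1.77 in wild type. The summed scaled signal of the T cell list was 34.4 to 97.6 in knockout and 21.3 to 48.4 in wild type, and its part in the Prkcq value was not tested. For the 98 genes together the sum was 1139 to 1519 in knockout and 1328 to 1701 in wild type, led by Fcer1g and Igf1. For the 10 genes it was 6.16 to 27.9 and 7.27 to 71.8. How much of the larger sum came from the sorted macrophages themselves was not tested. The r of these lists with Pf4 therefore cannot tell whether platelet RNA followed the 10.

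Among 20 granule and secreted proteins, 14 lay below 0 and 6 above, where 44.0% of all probes lay below 0. Vwf, which encodes von Willebrand factor and is also made by endothelium, read 1.76, 2.56 and 2.34 in knockout and 3.17, 2.99 and 2.35 in wild type, with a difference of -0.62 ± 0.62 (SE). Wild-type replicate 3 alone overlapped the knockout arrays, and the r of Vwf with Pf4 was 0.81. F13a1, coagulation factor XIII A, which macrophages also make, read -2.43, -0.18 and 0.52 in knockout and 0.19, 2.49 and 0.17 in wild type, with a difference of -1.65 ± 0.91 (SE). Thbs1, thrombospondin, exceeded background on none of the 6.

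Of 26 platelet receptors, 10 lay below 0 and 16 above. Clec1b, the podoplanin receptor CLEC-2, was bright, at 5.54 ± 0.23 in knockout and 5.54 ± 0.53 in wild type (SD, n = 3 each), although its probes above background differed in sign. P2ry12, the ADP receptor, differed by -0.05 ± 0.80 and Cd9, a tetraspanin, by 0.28 ± 0.64 (SE). Both are also known in macrophages or microglia. Selp, P-selectin of the α-granule, was well above background on 2 of 3 knockout and 2 of 3 wild-type arrays, at -3.06 ± 0.87 in knockout and -3.48 ± 0.89 in wild type (SD, n = 3 each).

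Of 34 signalling and cytoskeletal genes with a probe, 27 lay below 0 and 7 above. Their median was -0.20, beside -0.12 for all probes well above background on at least 3 arrays. Tubb1, the β-tubulin of platelets, was above background on 0 of 3 knockout and 1 of 3 wild-type arrays. Fermt3, the kindlin that activates αIIbβ3, differed by -0.32 ± 0.64 (SE), Rasgrp2, the exchange factor for Rap1, by -0.09 ± 0.66 (SE), and Ptgs1, cyclooxygenase-1, by -0.12 ± 0.62 (SE). Alox12 read -4.37, -3.24 and -2.61 in knockout and -1.82, -0.36 and -2.14 in wild type, without overlap. It was above background on 1 of 3 knockout arrays.

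**Figure D3:**
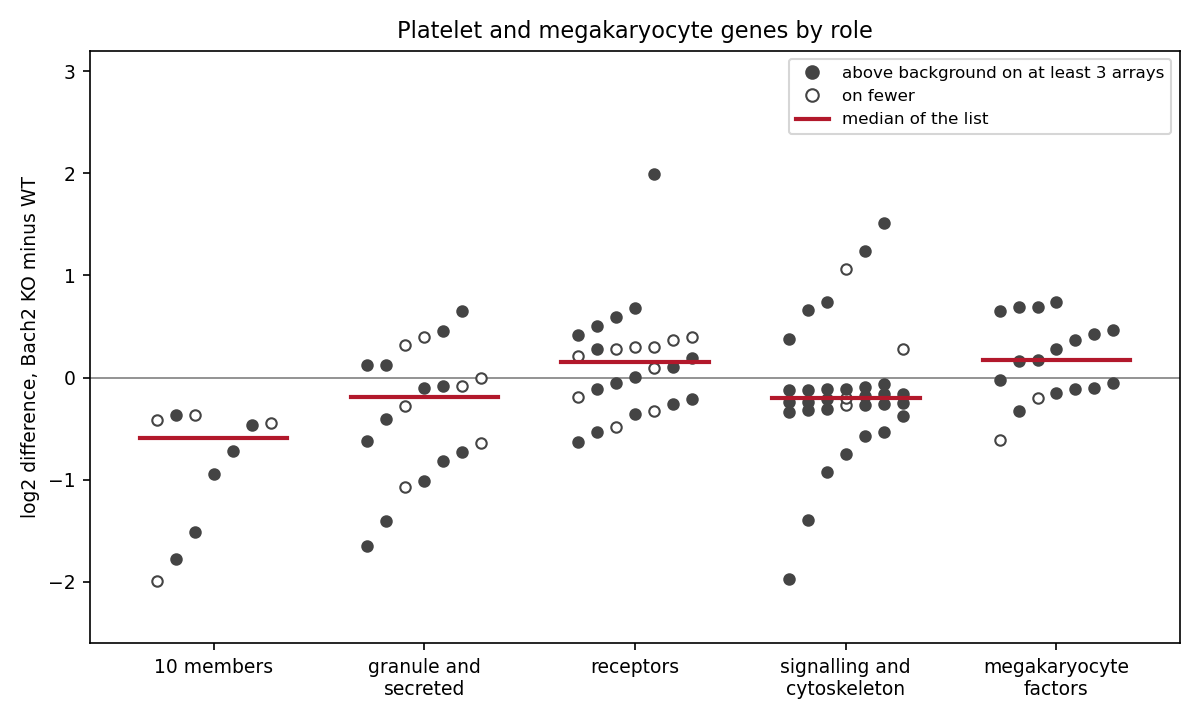
Log2 difference, knockout minus wild type, of the 10 genes (left) and of 4 lists of other platelet and megakaryocyte genes, 1 probe per gene. Filled points were well above background on at least 3 arrays and red lines are list medians, which lie at -0.59, -0.19, 0.15, -0.20 and 0.17 from left to right.

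The transcription factors of megakaryocytes had another order of arrays than Pf4. Gata1, the factor shared by red cells and megakaryocytes, read 4.57, 3.58 and 1.39 in knockout and 5.02, 1.28 and 1.17 in wild type. Wild-type replicate 2, the highest array for Pf4, was thus among the lowest for Gata1. Over the 6 arrays, Gata1, Nfe2, Tal1 and Gfi1b had an r of 0.15 to 0.25 with Pf4 and of 0.97 to 0.99 with the mean of 15 erythroid genes, which share these factors. Their differences were 0.69 ± 1.10 for Gata1, 0.69 ± 1.17 for Nfe2, 0.74 ± 1.10 for Tal1 and 0.28 ± 1.16 for Gfi1b (SE). Fli1 and Runx1, which other white cells also use, differed by 0.42 ± 0.72 and -0.03 ± 0.69 (SE), with an r with Pf4 of -0.25 and -0.63.

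**Figure D4:**
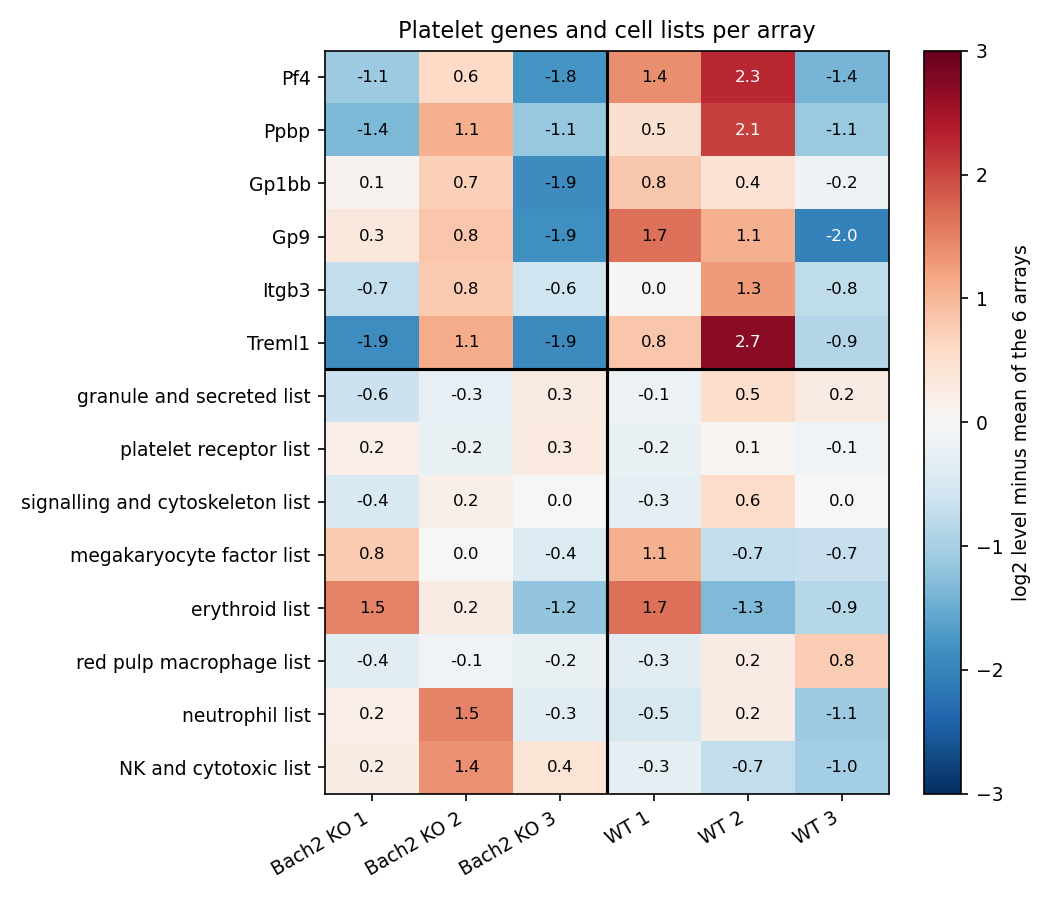
Log2 level of each array minus the mean of the 6 arrays, for the 6 member probes above background on at least 3 arrays (top) and as the mean over list genes above background on at least 3 arrays (bottom), with knockout arrays left of wild-type arrays. The members are high on knockout replicate 2 and on wild-type replicates 1 and 2, whereas the erythroid list is high on knockout replicate 1 and wild-type replicate 1.

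Marker lists of other splenic cells gave a different picture for each cell. The mean of the erythroid list had an r of 0.10 with Pf4 over the 6 arrays, the neutrophil list 0.36, the red pulp macrophage list -0.07 and the list of NK and cytotoxic cells -0.11. Of the lists of other cells, the dendritic cell list had the highest r, at 0.51, and the B cell list the lowest, at -0.53. All 12 genes of the NK list lay above 0, and its summed scaled signal was 88.6 to 309.1 in knockout and 28.4 to 56.8 in wild type. For the red pulp macrophage list 20 of 21 genes lay below 0, where 44.0% of all probes did. The sum of that list was 1430 to 2068 in knockout and 1771 to 3514 in wild type. The sum over the 10 platelet genes was 6.16 to 27.9 in knockout and 7.27 to 71.8 in wild type. Most of it came from Pf4 and Ppbp, whose sum was 4.05 to 20.4 in knockout and 5.02 to 60.9 in wild type. The part of such differences in cell content in the values of the platelet genes was not tested.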

How the data were processed

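Per the file headers, the deposited scanner files hold spot intensity values read with Agilent Feature Extraction 10.7.3.1, and the submitters' processing notes give version 9.1. Per the labels' protocols, column-purified RNA was amplified and labelled with a cyanine dye. The processed intensity is background subtracted within each array, per the file headers. The authors' deposited table of log2 values holds 279 probes, none of them a member, and was read only to check the scaling. Own values, scaled and with each probe's median taken off, differed from it by at most 0.13. That check left out 1 probe that is not among the non-control probes.

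Outlier spots (141 to 283 per array, none of them a member spot) were treated as missing, and spots of a probe were averaged as log2. Each array's 75th percentile over non-control spots was subtracted and every probe was kept. Accessions were named without version through the RefSeq table of GRCm38.p6, whose promoter windows gave the sequences. Genotypes were compared over all 55681 probes by linear models with empirical Bayes variances (limma 3.58.1, R 4.3.3) and Benjamini-Hochberg adjustment. Replicates are separate mice, numbered in the order of the records. All arrays lay on 1 slide. Deviations from the genotype mean correlated between the 2 arrays of a column at 0.71, 0.19 and 0.27, so a fit with array column as a block was run as an alternative. Reported errors and p-values are from the fit without it. The fit was tested on simulated data. Members, lists and the rule for named genes (the members, Bach2, pathway genes fixed by role, the nearest patterns) were chosen with earlier results of these data known. Ptgir, Pdgfa, Prkcq and Pdlim1 were named after their values were seen. In the lists a gene is read by its brightest probe.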

Additional observations from a re-analysis of the deposited data

How the results depend on the processing

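No member probe was called in any of 16 alternatives, of which 2 held only 6 or 10 of the 13 probes. Over all probes, normexp background correction called 1 higher and 1 lower in knockout, and a variance prior with a trend called 1 higher and 2 lower, against 0 and 0 otherwise. Normexp was run on the median signals, since the files used hold no mean signal column. Leaving out each mouse kept these counts at 0 and moved the median of the 13 member differences between -0.995 and 0.046. Without each mouse in turn, differences ranged from -2.59 to -0.76 for Pf4, -1.73 to -0.15 for Ppbp, -2.78 to -0.87 for Treml1, -2.66 to -1.49 for Gp1ba, -1.59 to 0.35 for Gp9, -0.85 to 0.18 for the brighter Itgb3 probe and -0.017 to 2.42 for the other. They ranged from -1.26 to 0.046, -0.85 to -0.07 and -0.31 to 0.83 for the Gp1bb probes, -0.998 to 0.12 for Gp5, -1.34 to 0.41 for Gp6 and -0.88 to 0.047 for Itga2b. Gp5 changed sign to 0.24 with normexp. Knockout replicate 3 and wild-type replicate 3 share the tag P6. Without both, differences were -2.09 for Pf4, -1.40 for Ppbp, -2.15 for Treml1 and -2.16 for Gp1ba. They were -0.78 for Gp9 and, for the brighter probes, -0.63 for Itgb3 and -0.21 for Gp1bb. The member median was then -0.21, with 7 of 13 below 0, beside 0.47 for all probes. The sign changed to 0.38 for Gp1bb probe A_55_P2039876, 0.28 for Gp5, 0.17 for Itga2b and 0.20 for Gp6, all dim on every array. The cause was not tested. Array column as a replicate block left the 13 member differences as they were, since each column holds 1 mouse of each genotype, with Pf4 at -1.52 and a member median of -0.46, and changed no call. With sex as a covariate the estimates equal those without wild-type replicate 3. The median of all probes was 0.22 when arrays were scaled to their median, against 0.09 with the 75th percentile. Signals near background limit Gp5, Gp6, Itga2b, Gp1ba and the dimmer probes of Gp1bb and Itgb3.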

Other observations

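Genes that neighbour the members on the chromosome were also read. Slc25a11, the next gene after Gp1ba on chromosome 11, read 3.57, 3.45 and 3.68 in knockout and 3.75, 4.30 and 3.99 in wild type, without overlap and with a difference of -0.45 ± 0.60 (SE, limma adjusted p = 1). Cxcl5 and Cxcl3, the chemokine genes on either side of the pair Ppbp and Pf4 on chromosome 5, exceeded background on none of the 6. These 3 genes were chosen for their position after the members' values were seen.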
